A study of Homo sapiens with 4 samples.

Results

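The genes of cholesterol and fatty acid synthesis were examined in HCT116 cells, a human colorectal carcinoma line. The set held 33 genes of 58735 in the expression files, taken as listed genes under the control of the sterol regulatory element-binding proteins (SREBPs). RNA was collected 48 h after transfection from 2 libraries that received a control siRNA and from 2 that received siRNA against KIF26B, a kinesin family gene. All 4 came from the same line, so its own mutations were shared by both groups. Which KIF26B siRNA sequence each library received is not given in the sources used here. Nothing in the labels says whether the 2 libraries of a group came from separate cultures, so p-values measure only the spread between these libraries, which may be technical.

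Cholesterol is built from acetyl-CoA through mevalonate and squalene. Fatty acids are built from the same acetyl-CoA through malonyl-CoA. Both branches are driven by SREBPs, transcription factors made as membrane proteins of the endoplasmic reticulum. SCAP, a sterol sensor, escorts them to the Golgi for cleavage when sterols are scarce, and INSIG proteins hold SCAP back when sterols are plentiful. SREBF2 encodes the form known mainly for sterol genes, and SREBF1 the form known mainly for fatty acid genes. Proliferating tumour cells commonly make much of their own lipid.

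Of the 33 genes, 4 fell and 1 rose at an unadjusted P under 0.05 in the KIF26B siRNA libraries (limma). The 4 were the sterol genes ACAT2, LSS, NSDHL and DHCR7. The 1 that rose was ME1, malic enzyme, which makes NADPH. These shares were 12.1% and 3.03%, against 8.68% of all 14523 genes tested called lower and 7.74% called higher. None of the 33 passed an adjusted p under 0.05 in limma, nor did any other gene tested. The lowest adjusted p of all genes was 0.242. Against the control mean, 27 of the 33 genes were lower in KIF26B siRNA replicate 1 and 22 in replicate 2. Of the 14523 genes tested, 7612 and 7328 were lower in these libraries. The median difference from the control mean was −0.56 on the log2 scale in replicate 1 and −0.09 in replicate 2. Over all genes tested these medians were −0.02 and −0.00. Single genes ranged from −1.27 to 0.86 in replicate 1 and from −0.61 to 1.25 in replicate 2. In bulk RNA, fewer cells of a type and less RNA per cell cannot be told apart.

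The libraries held 20493286 to 26575156 reads on genes, as recovered from the deposited values. Mitochondrial genes took 6.38% and 6.39% of them in the controls, 8.98% in KIF26B siRNA replicate 1 and 7.21% in replicate 2. KIF26B itself was near the detection limit. It read 0.110 and 0.205 FPKM (fragments scaled to gene length and library size) in the controls, on 31 and 73 reads. It read 0.140 FPKM in the library labelled KIF26B siRNA replicate 1, on 43 reads, and 0.0307 in the library labelled replicate 2, on 8 reads. Replicate 1 thus lay between the controls and replicate 2 below both. Of 8 epithelial markers 7 reached 1 FPKM and VIL1 did not, and their summed level was 1736 to 1748 FPKM in the controls and 1626 to 1724 in the KIF26B siRNA libraries. Hepatocyte and adipocyte markers, from tissues that make much lipid, were near 0. No hepatocyte marker of 4 reached 1 FPKM, with sums of 1.18 to 1.26 in the controls and 0.917 to 1.20 in the KIF26B siRNA libraries, and TTR was at 0 throughout. No adipocyte marker of 4 did either, with sums of 0.142 to 0.436 and 0.158 to 0.162, and ADIPOQ was at 0 throughout. Leukocyte markers summed to 0.388 to 0.480 FPKM in the controls and 0.205 to 0.368 in the KIF26B siRNA libraries, with CD3E at 0. Fibroblast markers summed to 7.14 to 7.28 and 4.87 to 8.76 FPKM, of which only COL1A1 of 4 reached 1. The 2 endothelial markers found of 3 summed to at most 0.201 FPKM in any library.

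All 33 genes were expressed above the filter of a mean of 1 FPKM, on 261 to 51490 reads per gene and library. SCD, the desaturase that makes oleate, had the highest level in the controls at 336.5 ± 2.42 FPKM (SD, n = 2). FASN, fatty acid synthase, followed at 222.4 ± 0.707 FPKM (SD, n = 2). ACLY, which makes cytosolic acetyl-CoA from citrate, came next at 93.0 ± 1.25 FPKM (SD, n = 2). These ranked 79, 118 and 329 among all genes. After them stood MSMO1 at 72.1 ± 1.02 and FDFT1 at 56.8 ± 0.485 FPKM (SD, n = 2). FADS2, the delta-6 desaturase, was the lowest at 1.55 ± 0.0289 FPKM (SD, n = 2). Some neighbours in this order had overlapping control values, among them HMGCS1 with MVD, STARD4 with SREBF1, and NSDHL with LSS. The controls agreed closely. Their log2 difference had a median size of 0.04 over the 33 genes, against 0.07 over all genes tested. Among the 33, CYP51A1 had the widest at 0.30.

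**Figure D1:**
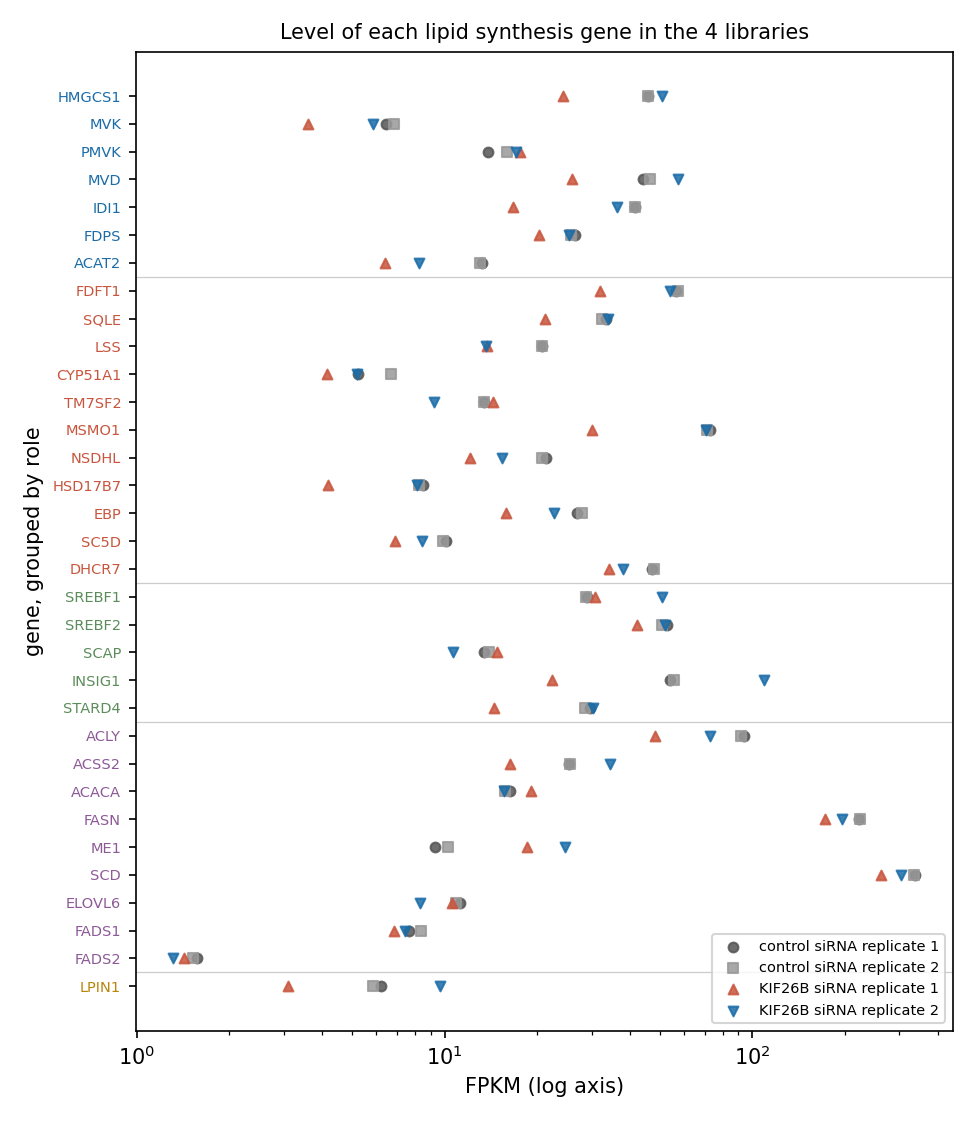
Level of each of the 33 genes in the 4 libraries, in FPKM on a log10 axis, grouped by role. Each marker is 1 library; control markers lie almost on top of each other, while INSIG1 spans 22.3 to 108.8 FPKM between the KIF26B siRNA libraries.

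The mevalonate steps turn acetyl-CoA into farnesyl diphosphate. Of 7 genes, 1 fell (14.3%) and none rose at an unadjusted P under 0.05, against 8.68% and 7.74% of all genes tested. ACAT2, which joins acetyl-CoA units at the entry of the pathway, read 13.2 and 13.0 FPKM in the controls, 6.40 in KIF26B siRNA replicate 1 and 8.26 in replicate 2. Both KIF26B siRNA libraries were well below both controls. Its log2 fold change was −0.77 ± 0.16 (SE), with adjusted p = 0.242 in limma. IDI1, the isomerase that makes dimethylallyl diphosphate, read 41.6 FPKM in each control, 16.7 in replicate 1 and 36.3 in replicate 2. Replicate 1 was at 40.0% of the control mean and replicate 2 at 87.3%, so both were below the controls but to unequal degrees. The log2 fold change of IDI1 was −0.73 ± 0.40 (SE), with adjusted p = 0.424 in limma.

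Some other mevalonate genes also differed between the KIF26B siRNA libraries. HMGCS1, the synthase at the head of the pathway, read 45.7 FPKM in each control, 24.3 in replicate 1 and 50.8 in replicate 2. MVD, the decarboxylase that makes isopentenyl diphosphate, read 44.2 and 46.4 FPKM in the controls, 26.0 in replicate 1 and 57.5 in replicate 2. Both genes were below the controls in replicate 1 and above them in replicate 2; they and MVK and FDPS were chosen for description after their values were seen. MVK, mevalonate kinase, read 6.43 and 6.83 FPKM in the controls against 3.60 and 5.84. FDPS, which makes farnesyl diphosphate, read 26.6 and 25.7 FPKM in the controls against 20.3 and 25.3. PMVK, the next kinase after MVK, went the other way at 13.9 and 15.9 FPKM in the controls against 17.6 and 17.1, with adjusted p = 0.461 in limma. Over the 7 genes, the median log2 difference from the control mean was −0.78 in replicate 1 and −0.05 in replicate 2.

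From squalene to cholesterol, all 11 genes had a log2 fold change below 0, as did 7490 of the 14523 genes tested. The median of the 11 was −0.44, and 3 of them (27.3%) fell at an unadjusted P under 0.05, against 8.68% of all genes tested. LSS, which closes squalene epoxide into lanosterol, read 20.7 and 20.8 FPKM in the controls and 13.7 and 13.6 in the KIF26B siRNA libraries. The 2 KIF26B siRNA libraries nearly coincided at 66.1% and 65.9% of the control mean. Its log2 fold change was −0.57 ± 0.11 (SE), with adjusted p = 0.242 in limma. NSDHL, which takes part in removing the methyl groups at C4, read 21.4 and 20.7 FPKM in the controls against 12.1 in replicate 1 and 15.4 in replicate 2. DHCR7, which makes cholesterol in the last step of one route, read 47.1 and 47.7 FPKM in the controls against 34.2 and 38.0. The log2 fold change was −0.59 ± 0.16 (SE) for NSDHL and −0.39 ± 0.12 (SE) for DHCR7, with adjusted p = 0.258 and 0.277 in limma. For both genes the KIF26B siRNA libraries lay below the controls.

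MSMO1, the C4 methyl sterol oxidase, read 72.9 and 71.4 FPKM in the controls, 30.2 in replicate 1 and 70.8 in replicate 2. Replicate 1 was at 41.8% of the control mean while replicate 2 was at 98.2%. The log2 fold change of MSMO1 was −0.63 ± 0.44 (SE), with adjusted p = 0.520 in limma. FDFT1, squalene synthase, showed the same split at 56.5 and 57.2 FPKM in the controls, 31.9 in replicate 1 and 54.1 in replicate 2. EBP, the sterol isomerase, read 26.8 and 27.8 FPKM in the controls, 15.8 in replicate 1 and 22.6 in replicate 2. EBP lay below the controls in both libraries, with a log2 fold change of −0.51 ± 0.20 (SE) and adjusted p = 0.330 in limma. SC5D, the C5 desaturase, was also lower in both, by 0.48 and 0.22 on the log2 scale. SQLE, the epoxidase, and HSD17B7, a 3-ketosteroid reductase, were lower by over 0.5 in replicate 1 only. CYP51A1, the lanosterol demethylase, and TM7SF2, a C14 reductase, had log2 fold changes of −0.30 and −0.20. TM7SF2 was the single gene of the 33 that was lower in replicate 2 than in replicate 1 by over 0.5, at 9.24 against 14.4 FPKM.

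Among the regulators and the cholesterol carrier STARD4, none of the 5 passed the unadjusted P in either direction. Over all genes tested, 8.68% were called lower and 7.74% higher. In these 5 the KIF26B siRNA libraries differed widely. The median log2 difference of replicate 2 from replicate 1 was 0.71, against 0.03 over all genes tested. INSIG1, which retains SCAP in the endoplasmic reticulum and is itself an SREBP target, read 54.1 and 55.6 FPKM in the controls, 22.3 in replicate 1 and 108.8 in replicate 2. Replicate 1 was at 40.7% of the control mean and replicate 2 at 198.5%, a 4.87-fold gap between libraries of one group. A log2 gap as large in that direction was present in 22 genes, or 0.151% of all genes tested. The log2 fold change of INSIG1 was −0.14 ± 0.80 (SE), with adjusted p = 0.939 in limma. STARD4, which carries cholesterol between membranes, read 29.7 and 28.6 FPKM in the controls, 14.4 in replicate 1 and 30.3 in replicate 2. It too was low in replicate 1 and at the control level in replicate 2.

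SREBF1 read 29.0 and 28.7 FPKM in the controls, 30.7 in replicate 1 and 51.0 in replicate 2. It was above the controls in both KIF26B siRNA libraries, by far more in replicate 2, and its log2 fold change was 0.44 ± 0.27 (SE) with adjusted p = 0.473 in limma. SREBF2 read 52.9 and 50.7 FPKM in the controls, 42.3 in replicate 1 and 51.8 in replicate 2. SCAP read 13.4 and 13.9 FPKM in the controls, 14.8 in replicate 1 and 10.7 in replicate 2. SREBF2 was lower in replicate 1 only and SCAP in replicate 2 only. Their log2 fold changes were −0.14 ± 0.15 and −0.11 ± 0.19 (SE), with adjusted p = 0.666 and 0.800 in limma.

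Promoter sequence is shown for genes with contrasting patterns: the regulators SREBF2 and INSIG1, the cholesterol carrier STARD4, MSMO1 as a gene low in replicate 1 alone, LSS as a gene low in both, and ME1 as the gene that rose. Stretches were taken from the RefSeq promoter windows of GRCh38.p14, which run from 250 bases before to 50 after each start. Capitals mark a sterol regulatory element core, a CCAAT box (ATTGG on the other strand) or, in ME1, an antioxidant response element core. Each is written 5′ to 3′ on the strand of the gene.
SREBF2: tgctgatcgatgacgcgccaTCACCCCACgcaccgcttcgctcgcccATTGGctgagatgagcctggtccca
INSIG1: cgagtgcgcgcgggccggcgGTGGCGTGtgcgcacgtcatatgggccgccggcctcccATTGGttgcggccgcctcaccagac
STARD4: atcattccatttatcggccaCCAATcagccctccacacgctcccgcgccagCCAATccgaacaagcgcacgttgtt
MSMO1: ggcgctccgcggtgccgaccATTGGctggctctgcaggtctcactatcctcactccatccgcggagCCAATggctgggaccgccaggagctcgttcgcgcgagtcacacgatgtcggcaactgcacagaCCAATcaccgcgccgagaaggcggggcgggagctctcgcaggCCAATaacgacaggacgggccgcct
LSS: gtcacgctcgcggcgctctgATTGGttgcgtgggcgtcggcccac
ME1: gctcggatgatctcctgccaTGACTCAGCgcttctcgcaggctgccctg
They lie at chr22:41832952-41833023 (+), chr7:155297650-155297732 (+), chr5:111512641-111512716 (−), chr4:165327464-165327659 (+), chr21:46228900-46228944 (−) and chr6:83431160-83431208 (−). In SREBF2 the full core TCACNCCAC begins 133 bases before the start and in INSIG1 the shorter CACNCCAC, on the opposite strand, at 208 bases. MSMO1 holds 4 CCAAT boxes, STARD4 holds 2 and LSS holds 1. The core TGACNNNGC of ME1 begins at 137 bases. Another match in ME1, on the opposite strand and outside the stretch shown, begins 12 bases after the start.

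The windows covered 29 of the 33 genes, and FDFT1, SQLE, ACAT2 and FASN had no entry. Both strands were searched. The full sterol core was in 1 gene, SREBF2 (3.45%), against 1.44% of the 9601 tested genes with an entry. The shorter core, which the full one contains, was in 6 (20.7%), namely IDI1, SC5D, SREBF2, INSIG1, ACACA and SCD, against 7.74%. CCAAT was in 21 (72.4%) against 43%, and the GC box GGGCGG in 28 (96.6%) against 78.9%. TGACNNNGC was in 4 (13.8%), namely HMGCS1, EBP, ME1 and LPIN1, against 19.6%. Of these genes only ME1 was called higher, which would hold for any motif in ME1, the only one of the 33 called higher. A link of the motif to that rise was not tested. The shorter core occurred both in genes that were low in replicate 1, such as IDI1, and in ACACA, which was not. These are matches of letters and not measured binding.

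In fatty acid synthesis 1 of 9 genes rose (11.1%) and none fell at an unadjusted P under 0.05. Over all genes tested these shares were 7.74% and 8.68%. ME1 read 9.31 and 10.2 FPKM in the controls, 18.5 in replicate 1 and 24.6 in replicate 2. Both KIF26B siRNA libraries were far above both controls, at 189% and 252% of their mean. Its log2 fold change was 1.05 ± 0.18 (SE), with adjusted p = 0.242 in limma. ME1 was also the only one of the 33 with an unadjusted P under 0.05 and a log2 fold change beyond 1 in either direction. Over all genes tested, 0.813% met this on the higher side and 0.606% on the lower. With each of the 4 libraries left out in turn, the log2 fold change of ME1 ran from 0.86 to 1.25.

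ACLY read 93.9 and 92.1 FPKM in the controls, 48.1 in replicate 1 and 72.9 in replicate 2. FASN read 221.9 and 222.9 FPKM in the controls, 171.8 in replicate 1 and 195.9 in replicate 2. SCD read 338.2 and 334.8 FPKM in the controls, 261.6 in replicate 1 and 304.5 in replicate 2. These 3 highly expressed genes lay below the controls in both libraries, and lower in replicate 1 than in replicate 2. Their log2 fold changes were −0.64 ± 0.23, −0.28 ± 0.13 and −0.25 ± 0.13 (SE), with adjusted p = 0.307, 0.369 and 0.412 in limma. ELOVL6, an elongase, and the desaturases FADS1 and FADS2 were below the controls in both libraries, with log2 fold changes of −0.21, −0.14 and −0.11. ELOVL6 was the lower in replicate 2, with log2 differences from the control mean of −0.06 in replicate 1 and −0.37 in replicate 2. ACACA, the carboxylase that makes malonyl-CoA, read 16.3 and 15.7 FPKM in the controls against 19.1 and 15.6. ACSS2, which makes acetyl-CoA from acetate, read 25.3 and 25.5 FPKM in the controls, 16.3 in replicate 1 and 34.3 in replicate 2. LPIN1, a phosphatidate phosphatase of glycerolipid synthesis, was split further at 6.20 and 5.84 FPKM in the controls, 3.11 in replicate 1 and 9.66 in replicate 2. ACSS2 and LPIN1 were thus lower than control in replicate 1 and higher in replicate 2, as INSIG1 and MVD were. ACSS2, LPIN1 and ACACA were chosen for description after their values were seen.

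**Figure D2:**
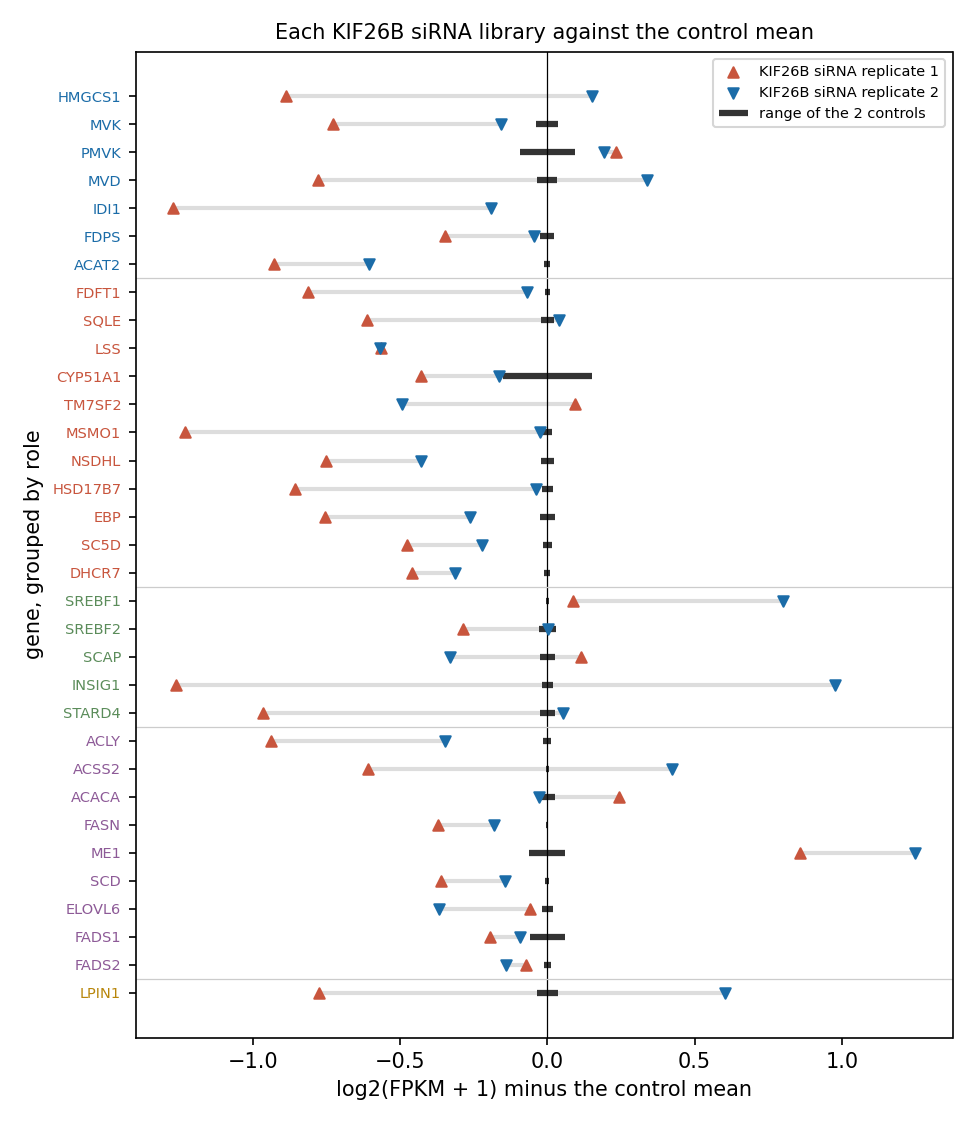
Difference of each KIF26B siRNA library from the control mean, in log2(FPKM + 1), for the 33 genes grouped by role; the dark bar is the range of the 2 controls. Replicate 1 lies to the left for most sterol genes, replicate 2 lies near 0 for many of them, and ME1 lies to the right in both.

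Counted by library, 17 of the 33 genes (51.5%) were lower than the control mean by over 0.5 on the log2 scale in replicate 1, against 10.7% of all genes tested. Only 1, ME1, was higher by that much (3.03%), against 8.67%. In replicate 2, 2 genes were lower by over 0.5 (6.06%), ACAT2 and LSS, against 11.1%. In that library 4 were higher (12.1%), namely SREBF1, INSIG1, ME1 and LPIN1, against 13.1%. Of the 17, 12 belonged to the 18 sterol enzymes. In 8 genes a drop of over 0.5 in replicate 1 went with a level within 0.2 of control in replicate 2, among them HMGCS1, FDFT1, MSMO1 and STARD4. The share of all genes with this joint pattern was not counted. The limits of 0.5 and 0.2 were chosen after the data were seen, and a single library carries no test.

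The 2 KIF26B siRNA libraries were then set against each other. Replicate 2 was above replicate 1 by over 0.5 in 14 genes (42.4%), against 14.8% of all genes tested. It was below by that much in 1 gene (3.03%), against 11.1%. The 14 were HMGCS1, MVK, MVD, IDI1, FDFT1, SQLE, MSMO1, HSD17B7, SREBF1, INSIG1, STARD4, ACLY, ACSS2 and LPIN1. The libraries also differed in the share of mitochondrial reads and in KIF26B itself, as given above. The part of these, or of the siRNA used, in the gap was not tested. In the mean of both libraries, 29 of the 33 genes had a log2 fold change below 0, as did 7490 of the 14523 genes tested. The median was −0.28 over the 33 against −0.01 over all genes tested.

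**Figure D3:**
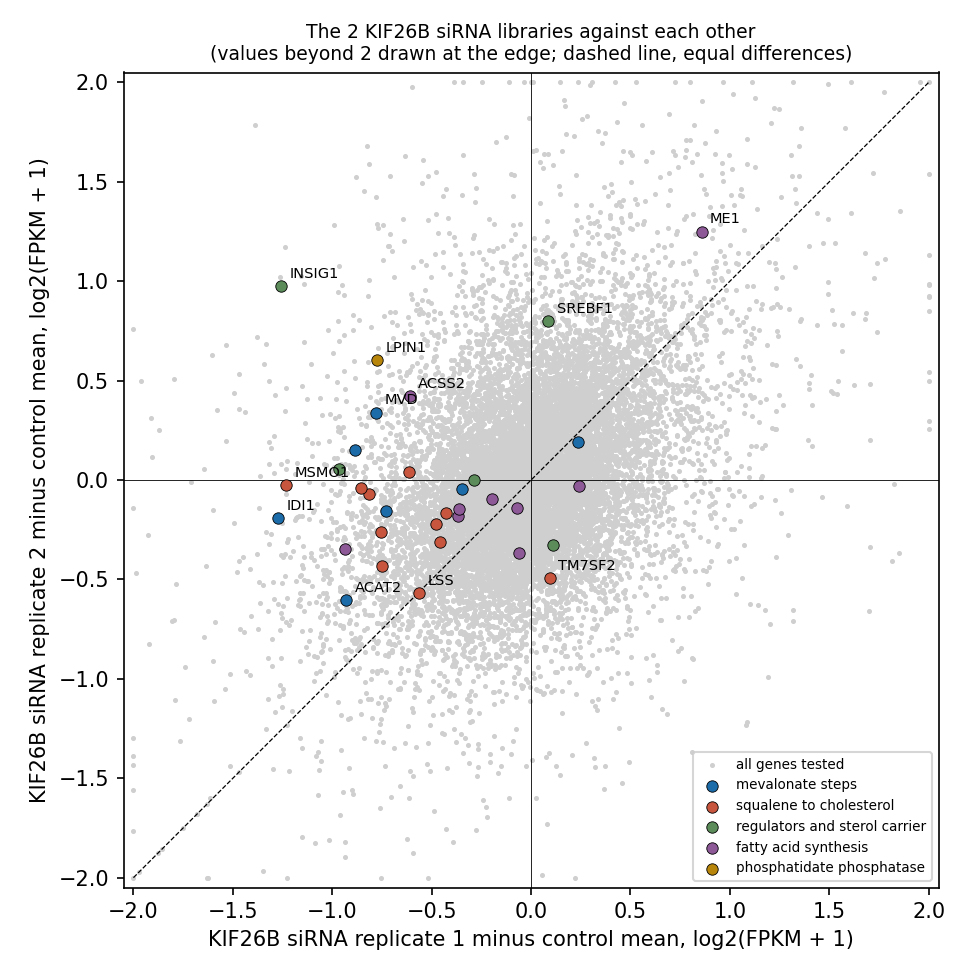
Difference from the control mean in KIF26B siRNA replicate 1 (x axis) against replicate 2 (y axis), in log2(FPKM + 1), for the 33 genes coloured by role and all genes tested in grey, with values beyond 2 drawn at the edge. The 33 genes spread widely along the x axis, from −1.27 for IDI1 to 0.86 for ME1. Of the 33, 26 lie above the line of equal differences, as do 7649 of the 14523 genes tested.

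In 19 of the 33 genes (57.6%) both KIF26B siRNA libraries lay below both controls, against 27.8% of all genes tested. In 3 (9.09%), PMVK, SREBF1 and ME1, both lay above, against 24.9%. The controls lay closer together in the 33 genes than over all genes, as given above, which eases separation in either direction. The 19 held 4 of 7 mevalonate genes, 9 of the 11 from squalene to cholesterol, 6 of 9 fatty acid genes and none of the 5 regulators and carrier. In 12 of the 19 the nearer library lay within 0.2 of the control mean on the log2 scale, as in MSMO1. The matching share over all genes was not counted. In the 4 genes that fell, the differences of replicates 1 and 2 from the control mean were −0.93 and −0.61 for ACAT2, −0.56 and −0.57 for LSS, −0.75 and −0.43 for NSDHL, and −0.46 and −0.31 for DHCR7.

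**Figure D4:**
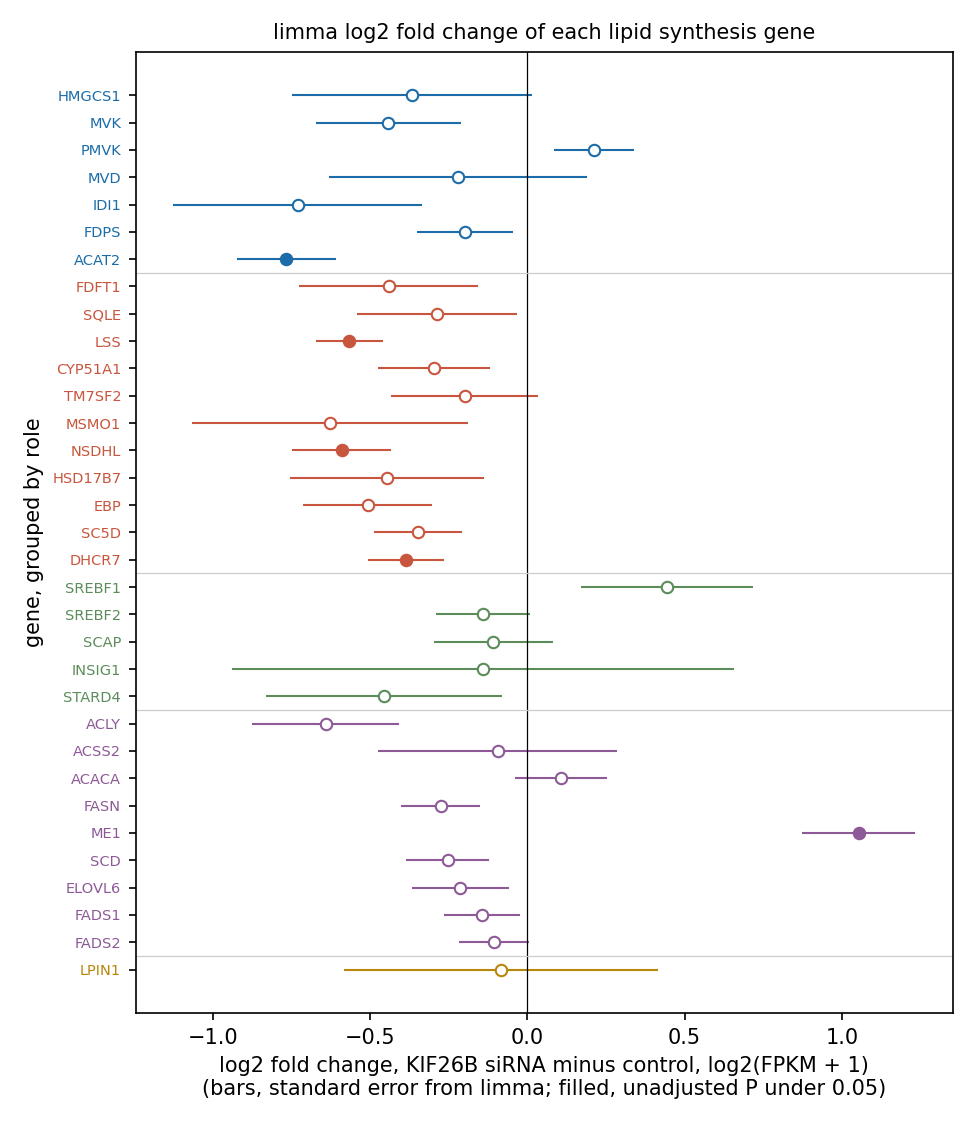
Log2 fold change of each gene between the KIF26B siRNA and control libraries on the log2(FPKM + 1) scale, with its standard error from limma as a bar. Filled points have an unadjusted P under 0.05, which are ACAT2, LSS, NSDHL and DHCR7 on the lower side and ME1 on the higher side; INSIG1 has the widest bar, with a standard error of 0.80.

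These calls rested on few libraries. Without control replicate 1, 0 of the 33 genes were called lower at an unadjusted P under 0.05 in limma, against 1.71% of all genes, and without control replicate 2 also 0, against 1.62%. The fold changes hardly moved, at −0.76 and −0.78 for ACAT2 and −0.57 and −0.56 for LSS in these fits. ME1 was still called in both. Without KIF26B siRNA replicate 1, 10 genes were called lower and 6 higher, against 23.6% and 22.9% of all genes. Without replicate 2, 23 were called lower and 2 higher, against 22.7% and 17.6%. In each of these fits the lone library of a group was assumed to vary like the 2 of the other group.

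Other sterol genes were described from a list chosen with earlier results of these data known. Of 21 listed sterol genes outside the 33, 17 were tested. Of these 6 fell (35.3%) and none rose at an unadjusted P under 0.05, against 8.68% and 7.74% of all genes tested. Their median log2 fold change was −0.42, against −0.01 over all genes. Both KIF26B siRNA libraries lay below both controls in 11 of the 17 (64.7%) and above both in 2 (11.8%). Over all genes tested these shares were 27.8% and 24.9%. Of the 17, 7 (41.2%) were lower than the control mean by over 0.5 log2 in replicate 1 and 5 (29.4%) in replicate 2. Over all genes tested this held for 10.7% and 11.1%. Unlike in the 33 genes, replicate 2 was above replicate 1 by over 0.5 in only 2 (11.8%), against 14.8% of all genes. It was below by that much in 2 (11.8%), against 11.1%. SOAT1, which esterifies cholesterol for storage, read 10.6 and 11.6 FPKM in the controls against 7.24 and 7.43. MBTPS2, the protease that makes the second cut in SREBPs, read 4.57 and 4.39 FPKM in the controls against 2.20 and 2.86. ERG28, an adaptor of the C4 demethylation enzymes, read 26.2 and 26.7 FPKM against 16.0 and 18.9. In all 3 the KIF26B siRNA libraries lay below the controls, and adjusted p in limma ran from 0.242 to 0.248. LBR, another C14 reductase, and TMEM97 also fell, by 0.42 and 0.56 on the log2 scale.

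Some levels carry uncertainty from shared reads. Exons of 6 of the 33 genes overlap those of another annotated gene over at least 10% of their bases, namely HMGCS1, IDI1, FDPS, ACAT2, CYP51A1 and EBP. The widest overlap was 68.2% for CYP51A1, with a gene on the same strand. For ACAT2 it was 17.2%, with TCP1 on the opposite strand, and whether counting used the strand is not given in the sources used here. Annotated pseudogene copies exist for FDPS (8), IDI1 (3), CYP51A1 (3), HSD17B7 (2) and SCD (1).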

How the data were processed

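Poly(A) RNA of 4 HCT116 libraries was sequenced paired-end by the authors. Per the submitters' processing notes, reads were aligned with HISAT2 2.0.5 and counted with featureCounts 1.5.0-p3. The notes name hg38 and the methods hg19, so no coordinates are given other than those of the RefSeq promoter windows, on GRCh38.p14. The deposited values are FPKM per gene and library. The unit was read from the values. Whole reads were recovered from them for all 34638 genes above 0, on a tolerance of 0.005 reads, and are approximate where the counts of a gene share a divisor. Of 58735 Ensembl identifiers 56513 were paired with a symbol through GENCODE.

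From these values, log2(FPKM + 1) was tested over 14523 genes, those whose mean reached 1 FPKM, with limma 3.58.1 in R 4.3.3, two-sided, without covariates. P-values were adjusted by Benjamini-Hochberg over all genes tested. Fold changes are on the log2(FPKM + 1) scale, which understates changes of low genes. A call was an unadjusted P under 0.05, the study's P threshold. With 2 libraries against 2, an exact permutation test cannot go below 0.333. The code of the fit was also run on simulated data, with large planted changes and the same spread in every library. That setting differs from these data, so the run does not measure how well the fit works here.

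The 33 genes, the related lists and the rules were chosen with earlier results of these data known. Full values were given for genes with an unadjusted P under 0.05, those not overlapping between groups with a log2 fold change beyond 0.5, the 5 highest in the controls and the regulators. Related genes were named up to 6 a list, in order of P, and 1 of them is not reported here. Alternatives were a replicate block, other filters, another pseudocount, other scalings, voom on recovered reads, a variance trend and leaving out each library. Figures were drawn with matplotlib 3.10.9.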

Additional observations from a re-analysis of the deposited data

How the results depend on the processing

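ME1 was called higher under every alternative run on all 4 libraries, against 5.95% to 8.64% of all genes. Its log2 fold change stayed positive with each library left out. The count of lipid synthesis genes called lower was 4 of the 33, against 8.68% of all genes tested. It was 4 or 5 under the other filters, the pseudocount of 0.1, median-of-ratios scaling and a variance trend, against 6.31% to 9.9%. It was 8 with limma-voom on recovered reads, where the share over all genes also rose, to 10%. It was 7 when scaled by total recovered reads, an alternative chosen after seeing the data, against 10.3% of all genes. With libraries left out in turn, it ran from 0 to 23 and the count called higher from 1 to 6. The median log2 fold change then ran from −0.56 without KIF26B siRNA replicate 2 to −0.0932 without replicate 1.

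Over all genes, 1261 were called lower and 1124 higher, 2186 and 2192 with no filter on low values, and 237 to 3424 and 281 to 3317 with libraries left out. An adjusted p under 0.05 in limma was reached by 0 genes with all 4 libraries, whichever setting was used. Fits without a KIF26B siRNA library had no spread within that group, so their adjusted p-values are not given. With the replicate block, 4 lipid synthesis genes were called lower, 3 of them as before, with ACLY in place of DHCR7, and 861 genes were called lower and 864 higher over all genes. Across genes, the deviation of replicate 1 from its group mean in the controls and that in the KIF26B siRNA libraries had a correlation of −0.00314. The replicate numbers were therefore not taken to pair the libraries.

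The log2 fold change changed sign in 11 genes when a KIF26B siRNA library was left out, 9 of them without replicate 1. Its range with each library left out was −0.89 to 0.15 for HMGCS1, −0.78 to 0.34 for MVD, −0.61 to 0.0385 for SQLE, −0.28 to 0.0016 for SREBF2, −1.26 to 0.98 for INSIG1, −0.97 to 0.0530 for STARD4, −0.61 to 0.42 for ACSS2, −0.0289 to 0.24 for ACACA and −0.77 to 0.60 for LPIN1. Without replicate 2 the sign changed for TM7SF2, with a range of −0.49 to 0.0944, and SCAP, with −0.33 to 0.11. The cause was not tested, and sign changes were not counted over all genes.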

Other observations

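Of 33 listed fatty acid genes outside the set described above, 30 were tested, 5 fell (16.7%) and 2 rose (6.67%) at an unadjusted P under 0.05, against 8.68% and 7.74% of all genes tested. Their median log2 fold change was −0.08. The long-chain acyl-CoA synthetases, which activate fatty acids, parted by member. ACSL3 read 30.6 and 30.3 FPKM in the controls and 15.5 and 15.8 in the KIF26B siRNA libraries, a log2 fold change of −0.92 ± 0.11 (SE) with adjusted p = 0.242 in limma. ACSL1 read 6.31 and 5.70 FPKM in the controls against 3.37 and 3.81. ACSL5 read 25.3 and 24.8 FPKM in the controls, 79.2 in replicate 1 and 45.6 in replicate 2, a log2 fold change of 1.23 ± 0.30 (SE) with adjusted p = 0.248 in limma. ACSL3 and ACSL1 were thus lower in both KIF26B siRNA libraries and ACSL5 higher in both.

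MID1IP1, which promotes the assembly of acetyl-CoA carboxylase, read 19.9 and 19.3 FPKM in the controls against 32.4 and 29.6. ELOVL3, an elongase, read 8.06 and 7.04 FPKM in the controls against 4.92 and 3.51, and SCD5, a desaturase, read 15.4 and 14.9 FPKM against 10.2 and 11.6.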
